A study of Acropora aff. hyacinthus sp. E JTL-2012 with 12 samples.

Results

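Corals 2, 7 and 75 are colonies of Acropora aff. hyacinthus, a tabletop coral, that grew in a back-reef pool called pool 300. One fragment of each colony was kept in that home pool and one was placed in a second pool, called pool 400. These corals were chosen by their pool of origin as the labels give it, and make 3 pairs of libraries, 6 of the 12 in the series. The remaining 6 libraries come from corals 40, 68 and 70, whose origin is pool 400 and which were split between the same pools. All fragments were placed on August 3, 2010 and sampled on August 30, 2011, within 10 minutes of noon, and total RNA was taken from polyps. Genotype, age and any treatment beyond the move are not given in the labels. Each coral is 1 pair of fragments. The limma p-values of the pool effect rest on how its size varied between 3 corals, with 2 residual degrees of freedom and a variance trend over all contigs. Those of differences between corals rest on the same residual, and those of differences between origins on all 6 corals. A library from a fragment holds RNA of every cell type of the animal, and fewer cells of a type cannot be told apart from less RNA per cell.

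Reef corals live close to their upper heat limit, and their cells answer protein damage with heat shock proteins. Hsp70, Hsp90 and small heat shock proteins bind unfolded proteins, DnaJ proteins bring them to Hsp70, BAG proteins release them from it, and heat shock factor 1 switches on the genes of the whole group. Immediate early transcription factors such as Fos, Jun, Myc and Egr are made within minutes of many stimuli, and TNF receptor-associated factors pass signals from receptors at the cell surface to such factors. In pools of a back reef, temperature swings with the tide, and pool 300 is known as the more variable of the pair. The comparison asked which transcripts of corals native to that pool differed after a year in the other one.

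The deposited values are reads per contig of an assembled transcriptome divided by a size factor of the library, here called normalised reads. Each contig has a description copied from the protein it resembles, often from a distant animal, and contigs that share a description need not be 1 gene. The 6 libraries held 557339 to 1287115 reads, with a median of 864342, the lowest being coral 2 in pool 400. Differences are given as log2(value + 1) in pool 400 minus that in pool 300, fitted with limma with the coral as a block, and a contig is called where its Benjamini-Hochberg adjusted p over the 11903 contigs tested is under 0.05. The added 1 makes folds of low contigs too small. Fragments of corals 40 and 68 go against their labels: in pool 300 coral 40 had a Pearson r across contigs of 0.842 with coral 40 in pool 400 and 0.909 with coral 68 there, and coral 68 had 0.856 with itself and 0.880 with coral 40. The median of all contigs was -0.126 on this scale and 0.0212 after the libraries were rescaled to one another by median ratios, a shift of 0.147. By coral the median of all contigs was -0.253 in coral 2, -0.207 in coral 7 and 0.128 in coral 75. Where 3 values are given below they stand in the order coral 2, coral 7, coral 75.

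In pool 400 these corals had higher levels of single members of several gene groups, with most members of each group not called. They included 1 of 8 tested contigs of the Hsp70 family, 3 of 7 of small heat shock proteins, 4 of 23 of immediate early transcription factors, 1 of 43 of TNF receptors and their adaptors and 4 of 85 of Rab and vesicle fusion proteins. Of the 11903 contigs tested, 98 rose in pool 400 (0.823%) and 13 fell (0.109%), which makes 0.933% called either way, and 744 had an unadjusted p under 0.05. The counts of each list below stand against these shares of all contigs. The 98 had a median log2 difference of 2.22, with a range of 0.73 to 4.84, and 57 of them were more than 4-fold and 21 more than 8-fold higher in pool 400. All 98 were higher in each of the 3 corals, also after rescaling. Of all 11903 contigs 931 were, and 1455 after rescaling. In 92 of the 98 the lowest of the pool 400 libraries lay above the highest home library, where 258 of all contigs (2.17%) had groups that did not overlap in this direction. The 98 were called on these same values, so both counts are largely set by the choice. The 13 falls had a median of -1.56, and 9 of them had groups that did not overlap, where 449 contigs (3.77%) did so. Of the rises 70 had an informative description and of the falls 7. With edgeR's quasi-likelihood test on the recovered reads 189 contigs (1.59%) rose and 37 (0.311%) fell, among them 95 of the 98 and all 13. After rescaling 144 (1.21%) rose and 17 (0.143%) fell. Leaving out coral 2, which had the fewest reads in pool 400, 193 rose and 58 fell, and without the pairing by coral as a block 9 rose and 0 fell.

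**Figure D1:**
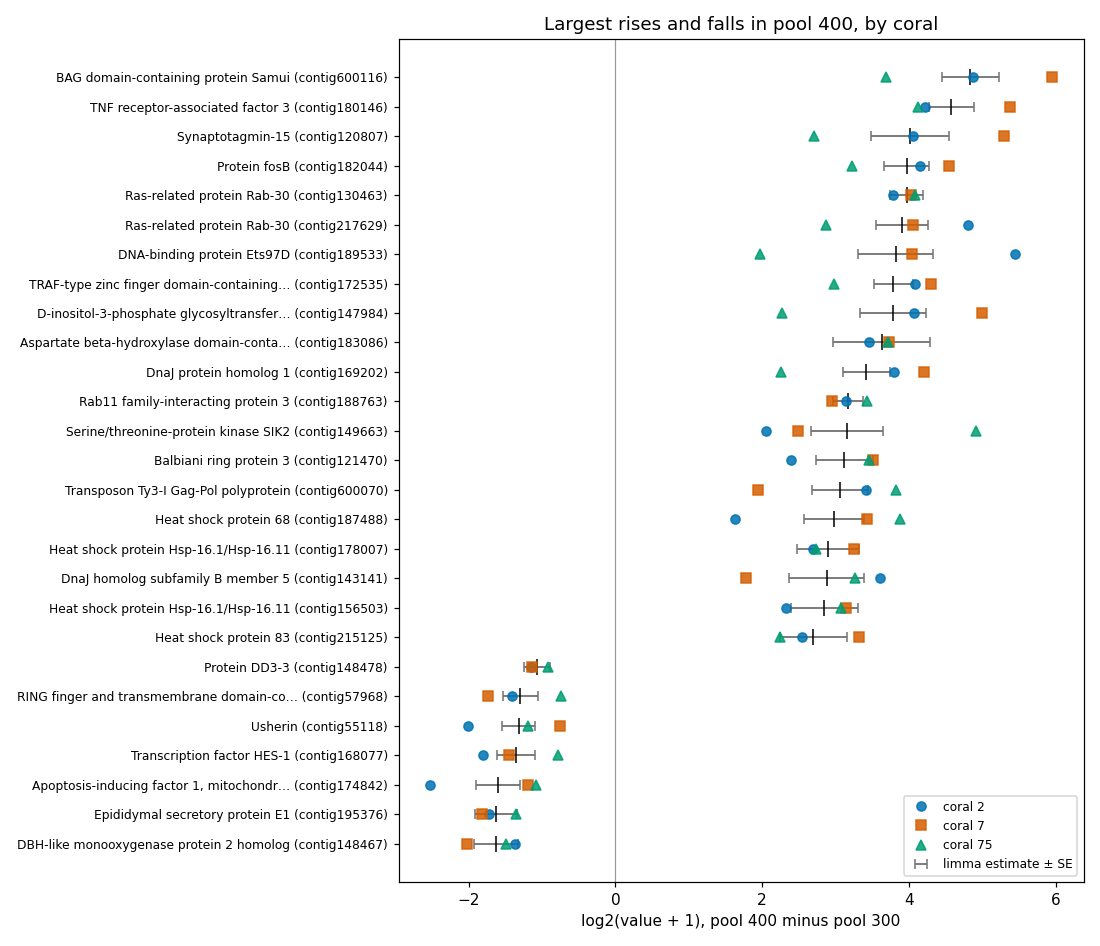
Log2 difference between pool 400 and pool 300 for the 20 largest rises and the 7 described falls, with 1 symbol per coral and the limma estimate with its SE. All 3 corals lie on the same side of 0 for each contig, as the rule for naming them required. Coral 75 lies below corals 2 and 7 in BAG domain-containing protein Samui, Synaptotagmin-15 and DNA-binding protein Ets97D.

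Of 8 tested contigs of the Hsp70 family 1 rose. Heat shock protein 68 (contig187488), named for an inducible Hsp70 of flies, was at 15.9, 13.1 and 14.1 normalised reads at home and at 51.3, 150.0 and 221 in pool 400. The home values lay close together, and the pool 400 value of coral 2 was the lowest of the 3 there but still above all home values. Its log2 difference was 2.98 (SE 0.41, limma adjusted p = 0.0069). The remaining 7 tested contigs of the Hsp70 family were not called. Among them Heat shock cognate 71 kDa protein (contig179553), the Hsp70 that cells make at all times, was at 62.3, 42.3 and 51.3 at home and 29.8, 82.8 and 80.3 in pool 400, and the mitochondrial Stress-70 protein (contig78924) at 285, 217 and 198 and 242, 208 and 239.8. Both overlapped between pools.

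Heat shock protein 83 (contig215125), the fly name for Hsp90, a chaperone of kinases and receptors, was at 1.45, 4.36 and 9.05 normalised reads at home and at 13.2, 52.3 and 46.5 in pool 400 (log2 difference 2.70, SE 0.46, limma adjusted p = 0.0247). The pool 400 values did not overlap those at home, although coral 2 stayed low in both pools. This contig rests on few reads, and its adjusted p was 0.231 without coral 7 and 0.0514 without coral 75. Of 8 tested contigs of Hsp90 and its co-chaperone Cdc37, it was the 1 called. A contig of Heat shock protein HSP 90-alpha (contig183708) was at 10.1, 24.9 and 30.2 at home and 21.5, 42.7 and 59.1 in pool 400 (limma adjusted p = 0.53), and a second one (contig100342) at 264, 125 and 186 and 391, 149 and 140.5. The endoplasmic reticulum form, Endoplasmin (contig182500), was at 21.7, 14.3 and 25.1 and 11.6, 18.3 and 35.9.

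Small heat shock proteins hold damaged proteins in solution until Hsp70 can refold them. All 3 contigs described as Hsp-16.1/Hsp-16.11, named for small heat shock proteins of worms, rose. One (contig178007) was at 5.79, 3.11 and 5.03 normalised reads at home and 43.1, 38.4 and 39.1 in pool 400 (log2 difference 2.90, SE 0.42, limma adjusted p = 0.00922). A second (contig165011) went from 14.5, 13.7 and 13.1 to 61.3, 68.9 and 86.6, with the 3 corals close together in each pool (limma adjusted p = 0.0057). The third (contig156503) went from 5.79, 3.74 and 2.01 to 33.1, 41 and 24.3 (limma adjusted p = 0.0189, and 0.084 without coral 7). Of the other 4 tested contigs of the list, none was called with limma or edgeR: Small heat shock protein (contig111812) was at 10.1, 23 and 31.2 at home and 1.66, 18.3 and 56 in pool 400, and Heat shock protein beta-11 (contig108793) at 71, 19.3 and 109.7 and 72.9, 22.7 and 56. The list as a whole had 3 of 7 contigs called, against 0.823% of all contigs, and a median log2 difference of 0.34.

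**Figure D2:**
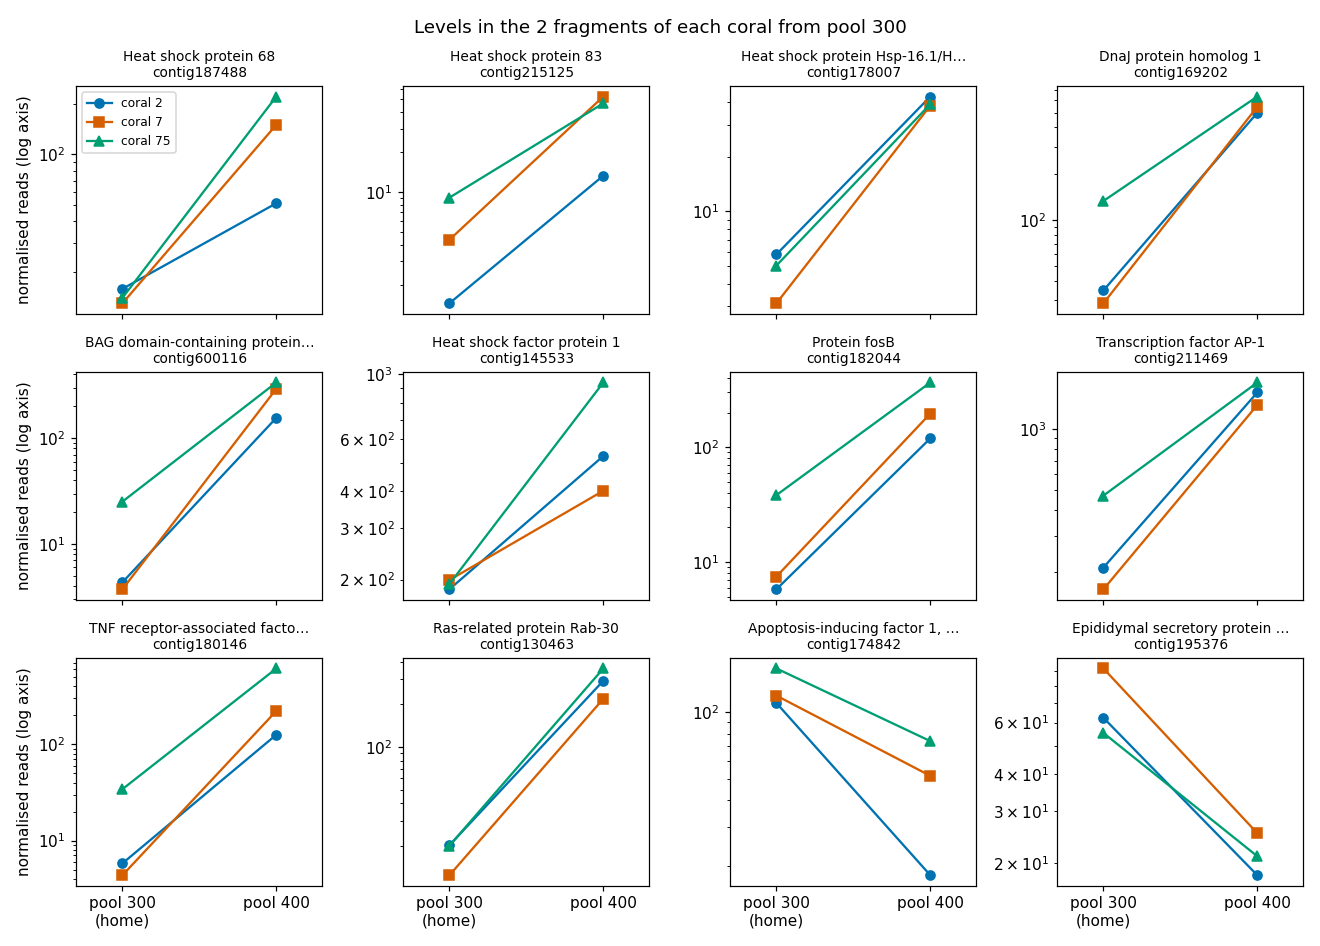
Normalised reads (log axis) of 12 contigs in the home and the pool 400 fragment of each coral, 1 line per coral. Heat shock factor protein 1 started from 185 to 199 in the 3 corals at home, while Apoptosis-inducing factor 1 and Epididymal secretory protein E1 went down in each coral.

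Of 8 tested contigs of heat shock factor and BAG proteins 2 rose, and the median of the list was -0.08. BAG domain-containing protein Samui (contig600116), which carries the domain that releases proteins from Hsp70 and was named in the silkworm, had the largest difference of all described contigs. It was at 4.34, 3.74 and 25.1 normalised reads at home and at 156, 293 and 336 in pool 400 (log2 difference 4.84, SE 0.39, limma adjusted p = 0.000457). DnaJ protein homolog 1 (contig169202), the fly form of the Hsp70 helper Hsp40, went from 34.8, 28.6 and 133 to 498, 546 and 636 (log2 difference 3.42, SE 0.32, limma adjusted p = 0.000822). Coral 75 had by far the highest home level of this contig, and in pool 400 the 3 corals lay within a narrow band. In Samui, too, the home level of coral 75 stood above those of corals 2 and 7. BAG family molecular chaperone regulator 4 (contig145524), with the same domain, was at 31.9, 31.8 and 79.5 at home and 19.9, 27.9 and 64.4 in pool 400, lower in each coral without passing the test.

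Of 44 tested contigs of DnaJ co-chaperones 3 rose and 0 fell, where 0.823% of all contigs rose and 0.109% fell. Besides DnaJ protein homolog 1 they were both of DnaJ homolog subfamily B member 5: one (contig143141) at 2.9, 3.11 and 5.03 normalised reads at home and 46.4, 13.1 and 57 in pool 400 (limma adjusted p = 0.0317, and 0.115 without coral 75), and one (contig179434) at 31.9, 44.2 and 42.3 and 111, 91.6 and 97.2 (limma adjusted p = 0.0442, 0.0728 without coral 7 and 0.0638 without coral 75). A further contig of that description (contig118827) was at 57.9, 42.3 and 47.3 at home and 109, 78.5 and 138 in pool 400 and missed the threshold in limma (adjusted p = 0.0879). With edgeR 8 of the 44 rose, the added ones being 4 contigs of DnaJ homolog subfamily B member 5 and DnaJ homolog subfamily C member 21. The median of the list was -0.12, against -0.126 for all contigs.

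The regulator of these genes, Heat shock factor protein 1 (contig145533), was at nearly one level in the 3 home fragments, 185, 199 and 193 normalised reads, and at 527, 401 and 937 in pool 400. Its log2 difference was 1.59 (SE 0.22, limma adjusted p = 0.00788), and coral 75 had the highest pool 400 level. A second contig of that description (contig167229) was at 43.4, 77.2 and 37.2 at home and 33.1, 55.8 and 75 in pool 400 and was not called. The 3 contigs of Heat shock factor-binding protein 1, which restrains the factor, were not called either, one of them (contig189344) being at 222, 92.8 and 158 and 268, 112 and 114. Chaperones of other kinds gave no calls: of 14 tested contigs of chaperonins and prefoldins and 24 of endoplasmic reticulum folding, limma and edgeR called 0 (0 and 1 at an unadjusted p under 0.05), with medians of -0.19 and -0.36. X-box-binding protein 1 (contig176405), the switch of the unfolded protein response, was at 298, 295 and 305 at home and 147, 275 and 289 in pool 400. Of 227 tested contigs of ubiquitin and the proteasome, which clear damaged proteins, limma called 0 (8 at an unadjusted p under 0.05) and edgeR 2, both higher. Of all 11903 contigs limma called 0.933% and 744 had an unadjusted p under 0.05, with a median of -0.126. A list of 14 or 24 contigs can hold 0 calls at that share.

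In the list of AP-1, Myc and immediate early factors 4 of 23 tested contigs rose, and the median of the list was 0.06. Protein fosB (contig182044), a Fos subunit of AP-1, was at 5.79, 7.47 and 38.2 normalised reads at home and 119, 196 and 365 in pool 400 (log2 difference 3.97, SE 0.30, limma adjusted p = 0.000323). Transcription factor AP-1 (contig211469), the description given to Jun, its partner, was at 210.0, 164 and 472 at home and 1507, 1309 and 1686 in pool 400 (2.55, SE 0.21, limma adjusted p = 0.000481). Both were highest in coral 75 in either pool, and in neither did the pools overlap. Myc proto-oncogene protein (contig139133), a driver of growth, went from 30.4, 25.5 and 72.4 to 185, 171 and 219 (limma adjusted p = 0.00281). Early growth response protein 1 (contig68383), named here after its values were seen, went from 358, 149 and 991 to 1755, 1398 and 1822 (limma adjusted p = 0.0161). Coral 75 was again the highest at home. Members that were not called lay on both sides of 0: Krueppel-like factor 15 (contig212643), of a family of zinc finger regulators, was at 117, 68.5 and 82.5 at home and 46.4, 63.7 and 79.2 in pool 400. The next by p after the 4, cAMP-responsive element modulator (contig145275), was at 76.7, 85.3 and 78.5 at home and 92.7, 158 and 299 in pool 400 (limma adjusted p = 0.288) and was called by edgeR.

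Further transcription factors were among the 98. DNA-binding protein Ets97D (contig189533), an ETS factor of flies, was at 5.79, 10.6 and 80.5 normalised reads at home and 296, 190.1 and 319 in pool 400 (log2 difference 3.82, SE 0.51, limma adjusted p = 0.00569), with log2 differences of 5.45, 4.04 and 1.97 that followed the order of the home levels in reverse. The home level is subtracted in each difference, so this order is in large part set by the arithmetic. Interferon regulatory factor 2-binding protein 1 (contig155851), a co-repressor, went from 107, 91.5 and 213 to 532, 471 and 643 (limma adjusted p = 0.000766). The other factors of this kind below were chosen for mention after their values were seen. Paired box protein Pax-3-B (contig154274) went from 113, 61.6 and 414 to 846, 689.7 and 969.6 and Paired box protein Pax-3 (contig209407) from 85.4, 188 and 237 to 585, 431 and 832. Both are named for factors of the neural crest and muscle of vertebrates. Among factors of ETS and Runt type, Transcription factor ETV6 (contig177469) went from 114, 116 and 114 to 296, 252 and 401, with nearly equal home levels. Transcriptional regulator ERG (contig600109) went from 57.9, 113 and 132 to 108, 227 and 331, with overlap between the pools, and Runt-related transcription factor 1 (contig145294) from 21.7, 53.6 and 37.2 to 62.9, 101 and 177. The calls of the last pair ended without coral 75 (limma adjusted p = 0.0887 and 0.117), and that of ERG without coral 7 (0.126). Yorkie homolog (contig145759), the co-activator at the end of the Hippo growth pathway, went from 539, 374 and 659.9 to 1289.9, 1036 and 1343 and Protein Tob1 (contig163512), a brake on proliferation, from 75.3, 76.6 and 154 to 195, 246 and 360.2. The smallest rise of a described contig was Segmentation protein cap'n'collar (contig145450), the fly relative of the oxidative stress factor Nrf2, at 584, 442 and 648 and 959, 785 and 1011 (0.73, limma adjusted p = 0.0372, 0.228 after rescaling and 0.203 without coral 7).

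Among signalling adaptors TNF receptor-associated factor 3 (contig180146), which serves TNF receptors and antiviral sensors, had the largest difference. It was at 5.79, 4.36 and 34.2 normalised reads at home and 126, 222 and 615 in pool 400 (log2 difference 4.58, SE 0.31, limma adjusted p = 0.000165). Coral 75 was highest in both pools, and its home level lay below all pool 400 levels. TRAF-type zinc finger domain-containing protein 1 (contig172535), known in mammals as a brake on innate immune signalling, went from 20.3, 15.6 and 54.3 to 361, 326 and 435 (3.79, SE 0.27, limma adjusted p = 0.000255). Of 6 tested contigs described as TNF receptor-associated factor 3, contig180146 was the 1 called. It was also the 1 called of 43 tested contigs of TNF receptors and TRAF adaptors, whose median was -0.15. TNF receptor-associated factor 2 (contig40250) was at 14.5, 27.4 and 20.1 at home and 28.1, 23.5 and 59.1 in pool 400.

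Of 36 tested MAP, calcium and salt-inducible kinases 2 rose and 0 fell, where 0.823% of all contigs rose and 0.109% fell. The median of the list was -0.19. Both tested contigs of Serine/threonine-protein kinase SIK2, a salt-inducible kinase related to AMP kinase, rose. One (contig82681) was nearly level at home, at 104, 92.2 and 109.7 normalised reads, and at 672, 454 and 694 in pool 400 (log2 difference 2.54, SE 0.17, limma adjusted p = 0.000165). The other (contig149663) went from 7.24, 22.4 and 12.1 to 33.1, 129.9 and 395, where the pool 400 level of coral 75 was far above that of coral 2 (log2 differences 2.05, 2.48 and 4.92, limma adjusted p = 0.0145). In the same list Mitogen-activated protein kinase 6 (contig106910) was at 63.7, 49.2 and 76.5 at home and 19.9, 40.1 and 43.3 in pool 400 and was not called. Dual specificity protein phosphatase 1 (contig157823), which switches MAP kinases off and was named after its values were seen, went from 42, 36.7 and 56.3 to 126, 129.9 and 185 (limma adjusted p = 0.00417). Cytosolic phospholipase A2 (contig172456), which frees fatty acids for signalling and was likewise chosen afterwards, went from 65.2, 43.6 and 82.5 to 172, 101 and 441.

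Of 85 tested Rab GTPases, synaptotagmins and SNAREs 4 rose and 0 fell, where 0.823% of all contigs rose and 0.109% fell. The median of the list was -0.16. Ras-related protein Rab-30 (contig130463), a GTPase of the Golgi, was at 20.3, 12.5 and 20.1 normalised reads at home and 293, 219 and 358 in pool 400, with log2 differences of 3.79, 4.03 and 4.09 (estimate 3.97, SE 0.22), and had the smallest p of all contigs (limma adjusted p = 0.000129). A second contig of Rab-30 (contig217629) went from 11.6, 6.85 and 25.1 to 351, 129.9 and 190.1 (limma adjusted p = 0.000717). Rab11 family-interacting protein 3 (contig188763), a partner of the recycling GTPase Rab11, went from 39.1, 25.5 and 38.2 to 354, 204 and 422 (3.18, SE 0.20, limma adjusted p = 0.000165). Synaptotagmin-15 (contig120807), of a family that steers vesicle fusion, was near the level of a single read in corals 2 and 7 at home, at 1.45, 0.623 and 14.1, and at 39.7, 62.8 and 97.2 in pool 400 (limma adjusted p = 0.0055). In the whole list of 85, 8 contigs were higher and 14 lower in pool 400 in all 3 corals. Of all 11903 contigs 931 were higher and 2057 lower in this way, and 1455 and 1299 after rescaling.

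**Figure D3:**
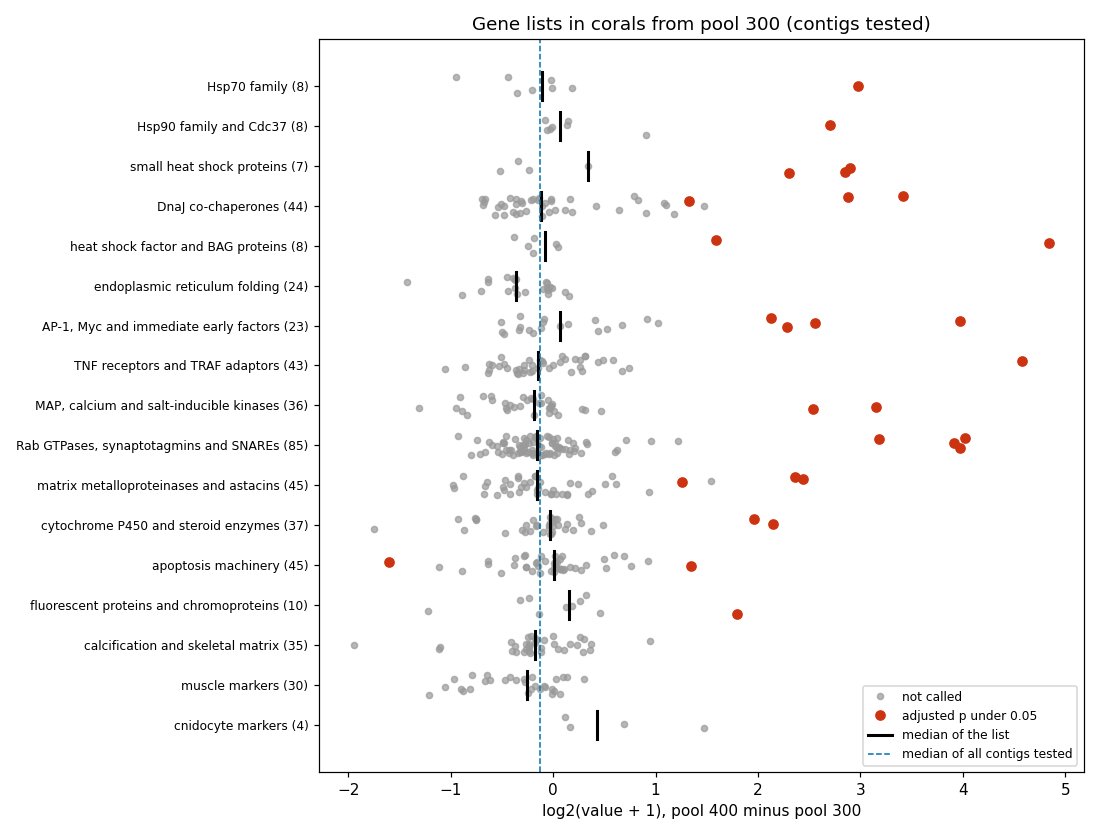
Log2 difference between pool 400 and pool 300 of each tested contig in 17 gene lists (the number tested in brackets), with called contigs in red, the median of each list as a bar and the median of all contigs as a dashed line. The called contigs lie to the right of the dashed line, except Apoptosis-inducing factor 1 in the apoptosis list, and members that were not called lie on both sides of it.

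Enzymes of the matrix and of detoxification also had members that rose. Matrix metalloproteinase-24 (contig44450), a membrane-bound protease of the extracellular matrix, went from 107, 92.2 and 318 normalised reads to 626, 734 and 939 (log2 difference 2.36, SE 0.24, limma adjusted p = 0.00142), and Metalloproteinase inhibitor 4 (contig169856), of the family that blocks such proteases, from 85.4, 71.6 and 71.4 to 666, 328 and 331 (2.44, SE 0.20, limma adjusted p = 0.000481). Matrix metalloproteinase-25 (contig60120) went from 79.6, 58.5 and 61.4 to 159, 174 and 145 (limma adjusted p = 0.0212, and 0.201 without coral 7). These 3 were the calls among 45 tested metalloproteinases and astacins, where 0.823% of all contigs rose. Of 132 tested contigs of collagens and other matrix proteins 0 were called with limma and 1 fell with edgeR. At an unadjusted p under 0.05 they held 11, where all 11903 contigs held 744. Cytochrome P450 3A24 (contig140774), an enzyme that oxidises foreign compounds, went from 27.5, 27.4 and 43.3 to 96, 124 and 258 (limma adjusted p = 0.00277). Steroid 17-alpha-hydroxylase/17,20 lyase (contig145436), also a P450, went from 229, 79.1 and 115 to 527, 412 and 579 (limma adjusted p = 0.00314). They were 2 of 37 tested P450 and steroid enzymes, among which Cytochrome P450 1A1 (contig4073) was at 63.7, 76.6 and 105 at home and 18.2, 51.4 and 84.5 in pool 400.

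Of 10 tested fluorescent proteins and chromoproteins, the pigments of coral tissue, 1 rose. GFP-like fluorescent chromoprotein FP506 (contig152508) was at 253, 122 and 119 normalised reads at home and 609, 616 and 412 in pool 400 (log2 difference 1.79, SE 0.21, limma adjusted p = 0.00284). Coral 2 was the highest at home, and in pool 400 corals 2 and 7 were alike. A contig of amFP486 (contig151799) was at 508, 217 and 157 and 598, 341 and 219 and was not called (limma adjusted p = 0.541). Of 35 tested contigs of calcification and skeletal matrix 0 were called with limma (3 at an unadjusted p under 0.05) and 1 rose with edgeR, Carbonic anhydrase (contig181281), which supplies bicarbonate for the skeleton, at 252, 41.1 and 72.4 at home and 442, 111 and 112 in pool 400 (limma adjusted p = 0.11, edgeR adjusted p = 0.0385). A contig of Small cysteine-rich protein 2 (contig180186), of a family secreted by corals, was at 116, 6.85 and 97.6 and 33.1, 3.49 and 57, lower in pool 400 in each coral without passing the test.

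The other rises named by their size or as called members of a list were of varied kinds. D-inositol-3-phosphate glycosyltransferase (contig147984) went from 8.69, 3.11 and 43.3 normalised reads to 162, 129.9 and 213 (log2 difference 3.78, SE 0.45, limma adjusted p = 0.00314), and was the 1 called of 19 tested contigs of that description. Balbiani ring protein 3 (contig121470), named for a salivary protein of midges, went from 5.79, 5.6 and 7.04 to 34.8, 74.1 and 87.7 (limma adjusted p = 0.00417). Transposon Ty3-I Gag-Pol polyprotein (contig600070), named for a retrotransposon of yeast, went from 15.9, 8.1 and 15.1 to 180.5, 34 and 226 (limma adjusted p = 0.00375). Aspartate beta-hydroxylase domain-containing protein 2 (contig183086) had 0, 0 and 1 reads at home and 6, 14 and 24 in pool 400, a ratio corrected for depth of 53.4 with an exact 95% counting interval of 9.10 to 2158, which covers counting error only. Its limma adjusted p was 0.0361, 0.0572 without coral 7 and 0.122 without coral 75. Its mean was 8.08 over these 6 libraries and 12.3 over all 12, where coral 40 in pool 400 held 78.5, so it passed the filter of 10 through corals from pool 400 and was not tested with the filter over the 6 libraries. Claspin (contig107904), of the DNA replication checkpoint, went from 30.4, 36.7 and 47.3 to 252, 177 and 261 and was the 1 called of 56 tested contigs of replication and the cell cycle (limma adjusted p = 0.000664). Apoptosis regulator R1 (contig179313), a Bcl-2 relative named in frogs, went from 159, 117 and 175 to 437, 276 and 452 (limma adjusted p = 0.00314).

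The described falls included a mitochondrial death factor, a sterol carrier and a repressor of the Notch pathway. Of all 13 falls 4 were called in each fit that left out a coral, where 73 of the 98 rises were. Apoptosis-inducing factor 1, mitochondrial (contig174842), a flavoprotein that leaves mitochondria in cell death, was at 110.1, 119 and 158 normalised reads at home and 18.2, 51.4 and 73.9 in pool 400 and fell by 1.60 in log2 terms (SE 0.30, limma adjusted p = 0.045). With Apoptosis regulator R1 it made the 2 calls, in opposite directions, among 45 tested contigs of the apoptosis machinery, where 0.933% of all contigs were called. In that list Caspase-8 (contig205595), which starts the death cascade below death receptors, was at 23.2, 40.5 and 43.3 and 6.62, 16.6 and 31.7 (limma adjusted p = 0.483). Epididymal secretory protein E1 (contig195376), also called NPC2, a carrier of cholesterol that cnidarians use at the membrane around their algae, went from 62.3, 91.5 and 55.3 to 18.2, 25.3 and 21.1 and fell by 1.63 (SE 0.28, limma adjusted p = 0.0271). It was the 1 called of 8 tested contigs of that description. Transcription factor HES-1 (contig168077), a repressor at the end of the Notch pathway, went from 125, 154 and 73.4 to 34.8, 55.8 and 42.2 and fell by 1.35 (limma adjusted p = 0.0486). In all 3 the pools did not overlap, which was also so for RING finger and transmembrane domain-containing protein 2 (contig57968), at 125, 211 and 107 and 46.4, 62.8 and 63.4. The called contig was 1 of 6 tested of its description for HES-1, and 1 of 2 for Apoptosis-inducing factor 1 and for the RING finger protein.

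In the other 3 described falls the pools overlapped while each coral went down. DBH-like monooxygenase protein 2 homolog (contig148467), of a family of copper enzymes, went from 14.5, 66.6 and 219 normalised reads at home to 4.97, 15.7 and 77.1 in pool 400 and fell by 1.63 (limma adjusted p = 0.0416). Usherin (contig55118), a protein of basement membranes, went from 269, 603 and 703 to 66.2, 358 and 306 and Protein DD3-3 (contig148478) from 104, 315 and 311 to 46.4, 142 and 164. The called contig was 1 of 7 tested of its description for the monooxygenase, 1 of 4 for Usherin and 1 of 8 for DD3-3. Each of the 7 described falls lost its call without at least 1 coral. Without coral 7 the limma adjusted p was 0.468 for the monooxygenase, 0.441 for the RING finger protein, 0.309 for Epididymal secretory protein E1, 0.222 for HES-1 and 0.21 for DD3-3. Without coral 75 it was 0.142 for the monooxygenase, 0.075 for Usherin and 0.0514 for Apoptosis-inducing factor 1. After rescaling Usherin and DD3-3 had adjusted p of 0.0578 and 0.102.

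Several broad lists had no limma call. They held 0 of 36 tested cytosolic ribosomal proteins, 0 of 75 contigs of oxidative phosphorylation, 0 of 92 antioxidant and redox proteins, 0 of 170 solute carriers, 0 of 37 G protein-coupled receptors and opsins and 0 of 10 circadian clock contigs. At an unadjusted p under 0.05 they held, in that order, 1, 0, 2, 7, 5 and 1 contigs. Of all 11903 contigs limma called 0.933% and 744 had such a p, so lists of this size can hold 0 calls at that share. With edgeR 1 ribosomal protein and 2 receptors rose and 1 solute carrier fell, and 0 were called in the other 3 lists. Thyrotroph embryonic factor (contig150770), a clock-controlled regulator, came nearest in the clock list, at 424, 384 and 376 normalised reads at home and 235, 256 and 212 in pool 400 (limma adjusted p = 0.0717). Catalase (contig177311), which removes hydrogen peroxide, was at 533, 566 and 718 and 260.0, 453 and 709. Of 88 tested lectins and innate immune contigs the 1 called by limma was Interferon regulatory factor 2-binding protein 1, given above, and Interferon regulatory factor 2 (contig149679) itself was at 72.4, 101 and 78.5 and 26.5, 53.2 and 41.2 (limma adjusted p = 0.12).

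Markers of cell types that a polyp holds were all detected, with 0 contigs called by limma in each list. At an unadjusted p under 0.05 the lists held 1 of 4 tested cnidocyte, 6 of 30 muscle, 4 of 54 sperm and cilia and 0 other contigs. Of all 11903 contigs 744 had such a p and limma called 0.933%, so lists of this size can hold 0 calls at that share. The summed level of the 8 cnidocyte contigs (4 tested), which include the mini-collagens of stinging capsules, ran from 172 to 204 normalised reads at home and from 227 to 342 in pool 400, with 1 Mini-collagen (contig70107) at 73.9, 13.1 and 32.2 and 189, 82 and 46.5 and called by edgeR. The sum of the 42 muscle contigs (30 tested) ran from 4496 to 4649.8 at home and from 3374 to 4216 in pool 400, and Myosin regulatory light chain 12B (contig74571) was at 85.4, 238 and 129.8 and 39.7, 61.9 and 84.5 and called by edgeR as lower. In both lists the sums of the pools did not overlap on the deposited scale, and rescaled sums were not computed. The deposited factors in pool 400 were 1.28, 1.18 and 0.891 times median-ratio factors, which bears on these sums. Whether the sums stay apart after rescaling is therefore not known. The median log2 difference of the tested muscle contigs was -0.371, -0.386 and -0.212 by coral, and -0.0152, -0.118 and -0.399 after rescaling. For the cnidocyte contigs it was 0.377, 0.691 and 0.480, and 0.729, 0.970 and 0.296 after rescaling. The sums of 9 neuron contigs (264 to 450.4 at home, 256 to 431 in pool 400), 21 germ line contigs (1485 to 2279 and 1388 to 2559.9), 71 contigs of sperm and cilia (2700.1 to 2990.2 and 2601 to 3385) and 2 photosystem contigs of the algae (72.2 to 85.4 and 53 to 121) overlapped. With edgeR 0 contigs of these 4 lists were called, and each marker had a read in at least 1 of the 6 libraries. The part of these lists in the differences between pools was not tested.

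In the 98 contigs that rose the 3 corals had unequal home levels. These contigs were chosen on the same corals, so a rise in all 3 is largely set by that choice. Over the 98 contigs that rose, the median log2 difference was 2.09 in coral 2, 2.27 in coral 7 and 1.90 in coral 75, and 2.45, 2.55 and 1.71 after rescaling. Coral 75 had the highest home level in 62 of the 98 (63.3%), where it did so in 25.5% of all contigs tested, and coral 7 had the lowest in 63 (64.3%), where it did so in 38.9%. On the deposited scale coral 75 had the highest pool 400 level in 66 and coral 7 the lowest in 56. The shares of all contigs in pool 400 were not computed. The deposited factors there were 1.28, 1.18 and 0.891 times median-ratio factors, which bears on this order. This ordering at home was not tested, since each coral has 1 home fragment.

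Differences between the corals were far more common than differences between the pools. With limma's moderated F test over the corals, 1557 contigs (13.1%) differed between corals 2, 7 and 75, of which 946 had an informative description, and edgeR gave 2383. Coral 2 was highest in 880 of the 1557, coral 75 in 472 and coral 7 in 205, and in 119 the corals spanned more than 16-fold. Without coral 2 the other pair differed in 571 contigs, and without coral 75 corals 2 and 7 differed in 3242. Of the spread of log2 values over the 6 libraries, 67.5% lay between corals, 13.6% between pools and 18.9% in the residual, as sums of squares not divided by their degrees of freedom. The fragments of a coral matched each other across pools, with Pearson r across contigs of 0.901 to 0.914, where libraries of different corals had 0.715 to 0.855.

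The widest ranges belonged to contigs that were present in some corals and nearly or wholly missing in others, in both fragments alike. PiggyBac transposable element-derived protein 4 (contig107502), related to a DNA transposon, was at 149 and 232 normalised reads in the fragments of coral 2, at 11.2 and 4.36 in coral 7 and at 1.01 and 0 in coral 75 (limma adjusted p = 0.00105). Cytolysin RTX-A (contig209029), a pore-forming sea anemone toxin, was at 8.69, 282 and 2.01 at home and 6.62, 426 and 3.17 in pool 400, high in coral 7 alone (limma adjusted p = 0.000276). Caspase-2 (contig175813), a death protease, followed coral 7 in the same way, at 0, 70.4 and 1.01 and 0, 79.3 and 1.06. Of the contigs of Cyano fluorescent protein, a pigment, 2 had nearly all their reads in coral 75, one (contig152112) at 0, 0.623 and 115 and 0, 1.74 and 116 and a second (contig152151) at 0, 0 and 57.3 and 0, 0 and 84.5, and likewise for Metabotropic glutamate receptor (contig13732), at 2.9, 0 and 85.5 and 1.66, 0 and 79.2. Thioredoxin (contig153893), a reducer of disulphides, had no read in coral 7, at 47.8, 0 and 64.4 and 13.2, 0 and 85.6, and Prostatic acid phosphatase (contig138670) none in coral 75, at 59.4, 23 and 0 and 77.8, 19.2 and 0. A count of 0 allows up to 3 reads, and whether an allele too different to align reads as absent was not tested.

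**Figure D4:**
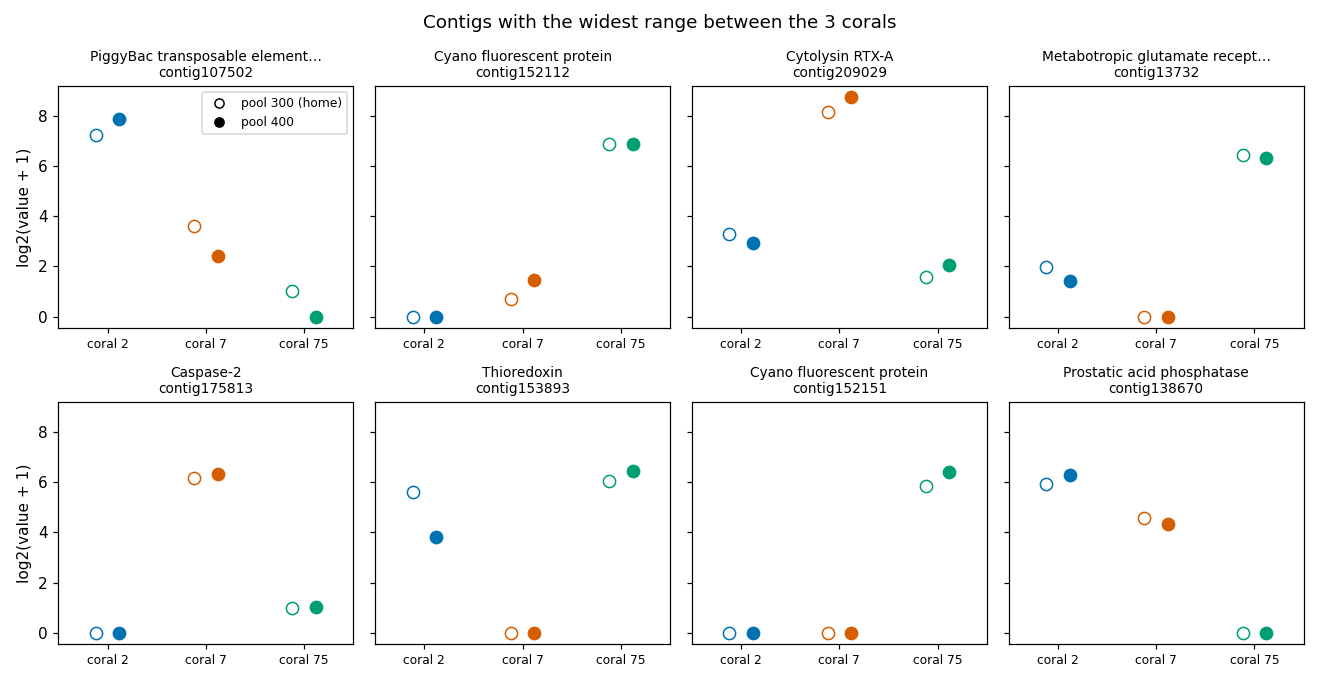
Log2(value + 1) of the 8 described contigs with the widest range between corals, open symbols for the home fragment and filled for pool 400. Both fragments of coral 7 lie on top for Cytolysin RTX-A and Caspase-2, and both of coral 75 for the Cyano fluorescent protein contigs.

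The lists held unequal shares of contigs that differed between corals, which was not tested. Of the 10 tested fluorescent proteins 8 (80%) differed between corals, of 36 cytosolic ribosomal proteins 17 (47.2%) and of 35 calcification contigs 14 (40%), where 13.1% of all contigs did. Carbonic anhydrase (contig181281) was highest in both fragments of coral 2 (limma adjusted p = 0.0024), and Small cysteine-rich protein 2 (contig180186) was lowest in both of coral 7 (limma adjusted p = 0.00192). Of the 98 contigs that rose in pool 400, 19 also differed between corals, among them the called contig of TRAF3 (limma adjusted p = 0.011) and fosB (0.0197).

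In corals 40, 68 and 70, whose home is pool 400, most of the same contigs were also higher in pool 400, and limma called no difference between the origins. In those corals limma called 0 contigs between the pools, with 244 at an unadjusted p under 0.05. Of the 98 contigs 93 were higher in pool 400 there, where 61.2% of all contigs were, and their median log2 difference was 0.92 against 2.22. The contigs were chosen on corals 2, 7 and 75, so a smaller median elsewhere is no evidence of a difference. By coral the median of the 98 was 1.52 in coral 40, 0.94 in coral 68 and 0.29 in coral 70, where all contigs had medians of -0.175, -0.0427 and 0.53. In the same order 89, 86 and 74 of the 98 were higher in pool 400, where 34.6%, 46.3% and 78.8% of all contigs were. Coral 70 thus showed no excess over all contigs. Its deposited factor in pool 400 was 0.638 times the median-ratio factor. The values of corals 40 and 68 rest on the pairing by label, which their match goes against. Crosswise, the pool 300 fragment of coral 40 with the pool 400 fragment of coral 68 gave 1.21 and the reverse pair 1.12. The test of the difference itself, an interaction over the 12 libraries, called 0 contigs with limma (211 at an unadjusted p under 0.05), 1 with edgeR (214) and 2 after rescaling. With corals 40 and 68 paired crosswise, a fit added after their match had been seen, limma also called 0.

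**Figure D5:**
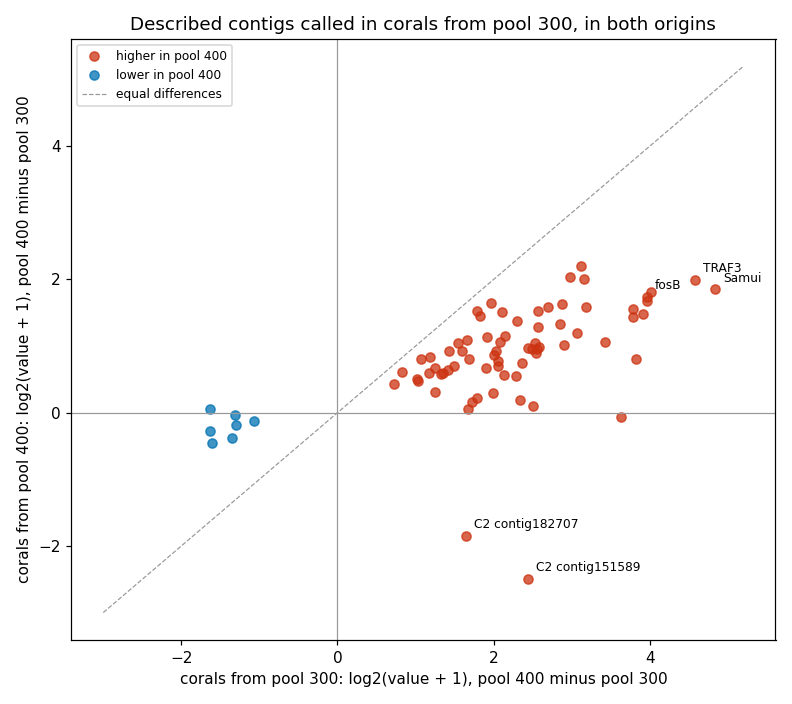
Log2 difference between pool 400 and pool 300 in corals from pool 300 (horizontal) and in corals from pool 400 (vertical) for the 70 described contigs that rose and the 7 that fell in the former. Of the 70 rises 67 lie between 0 and the line of equal differences and 3 lie below 0, among them both called contigs of C2 domain-containing protein C31G5.15.

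Named contigs show how the origins compare. The called contig of TRAF3 (contig180146) was at 5.79, 4.36 and 34.2 normalised reads at home in corals from pool 300. It was at 29.9, 32.5 and 108 in the pool 300 fragments of corals 40, 68 and 70, and at 447, 137 and 114 in their home fragments. Samui was at 38.7, 39.7 and 62.8 and 297, 217 and 73.4 in the same order, so that its level in pool 300 was above that of corals 2, 7 and 75 there. DnaJ protein homolog 1 was at 180.0, 218 and 236 and 598, 521 and 276, and fosB at 52.8, 54.2 and 38.1 and 263, 126 and 127. The difference of the pool effect was 2.35 for DnaJ protein homolog 1 (SE 0.51), 2.23 for fosB (SE 0.44), 1.60 for Transcription factor AP-1 (SE 0.34) and 1.61 for Matrix metalloproteinase-24 (SE 0.37), each with a limma adjusted p of 1. These and the 2 called contigs of C2 domain-containing protein C31G5.15 were the 6 described contigs of smallest p in that test. One C2 contig (contig182707) was at 88.3, 36.1 and 46.3 in pool 300 and 258, 114 and 159 in pool 400 in corals 2, 7 and 75, and at 32.2, 187 and 57.1 and 7.44, 33 and 26.3 in corals 40, 68 and 70 (limma adjusted p = 0.0771 for the difference).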

How the data were processed

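Polyp RNA from 12 fragments of 6 corals was sequenced as TruSeq libraries, 12 to a lane, per the labels. The submitters' processing notes name BWA and DESeq, without versions. The deposited values are a signal for 16980 contigs, reads divided by a size factor of the library. Per the file headers the pool 400 columns were adjusted, in a way not given in the sources used here: their factors were 1.28, 1.18 and 0.891 times median-ratio factors in corals 2, 7 and 75, against 0.994 to 1.000 at home. Whole reads were recovered (tolerance 0.01) from all values but 1, which was read as 0. Another 9 columns, of group means, SDs and a ratio, were not used.

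Values of contigs whose mean over all 12 libraries reached 10 entered limma 3.58.1 (R 4.3.3) as log2(value + 1), with the coral as a block, a trended prior variance and an adjusted p threshold of 0.05. Fragments of 1 coral pair by design, and their deviations from the group means had r of 0.688, 0.658 and 0.496. Alternatives were edgeR 4.0.16 and DESeq2 1.42.0 on recovered reads, other scalings, pseudocounts, filters and blocks, and the omission of each coral. The limma fits of the pool effect and of its difference between origins were tried on simulated data. The alternatives were not.

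The corals, gene lists and tests were chosen with earlier results of these data known. Contigs named were the 20 largest rises and up to 10 largest falls (7 existed) that were called, moved alike in all 3 corals and had an informative description, the 8 of widest range between corals, the 6 of smallest p between origins and up to 3 of smallest p in each list. Others named were chosen after their values were seen. Lists are word patterns on descriptions, corrected for words matched by mistake, and were given no test.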

Additional observations from a re-analysis of the deposited data

Results flagged for a closer look

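Of 4 tested contigs of C2 domain-containing protein C31G5.15, 2 were called higher in pool 400 in corals 2, 7 and 75. Both of these went down from pool 300 to pool 400 in corals 40, 68 and 70 as labelled. As labelled, every coral of each origin moved in the direction of its group, and the difference was also put to the interaction test. Paired crosswise, the pool 300 fragment of coral 40 and the pool 400 fragment of coral 68 differed by 0.03 in contig182707 and -0.02 in contig151589, and the reverse pair by -4.48 and -6.64 log2 units, so that not every pair went down. For one of them (contig182707) the pool effect differed by 3.49 log2 units (SE 0.41; limma adjusted p = 0.0771, 0.00625 after rescaling, and edgeR adjusted p = 0.00624). For the other (contig151589) it differed by 4.93 (SE 0.75; limma adjusted p = 0.344, 0.0355 after rescaling, and edgeR adjusted p = 0.174). The latter was at 13, 8.1 and 19.1 normalised reads in pool 300 and 77.8, 64.5 and 78.2 in pool 400 in corals 2, 7 and 75, and at 11.1, 98.7 and 27.6 and 0, 11 and 15.2 in corals 40, 68 and 70. When corals 40 and 68 were paired crosswise, limma gave an adjusted p of 1 for each.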

How the results depend on the processing

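Of the 98 rises 93 were also called after median-ratio rescaling, 95 with edgeR and 95 with DESeq2, and of the 13 falls 10, 13 and 11. Against 98 rises and 13 falls, quantile normalization gave 158 and 28, edgeR 189 and 37, and a fit of all 12 libraries 64 and 2. Corals pair the fragments by design: with no replicate block 9 rose and 0 fell. Leaving out each coral in turn gave 97 to 193 rises and 22 to 58 falls, and 73 of the 98 rises and 4 of the 13 falls were called in every such fit. Differences between corals numbered 2383 with edgeR and 571 to 3242 with a coral left out, against 1557. The difference between origins had 0 calls, 2 after rescaling, 1 with edgeR and 0 to 2 with a coral left out, the 2 being without coral 70. The causes were not tested, beyond fewer corals in each omission. Fits without a coral rest on 1 residual degree of freedom and on the variance trend of all contigs. DESeq2 gave 138 and 14, other filters and pseudocounts 90 to 109 and 9 to 19, and rescaling 144 and 17. Of the 98, 3 rested on fewer than 10 reads in the home fragments together, where depth limits the size of the difference.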
